A study of Caenorhabditis elegans with 9 samples.

Results

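The cpr genes of Caenorhabditis elegans encode cathepsin B-like cysteine proteases, and 7 of them (cpr-1, cpr-2, cpr-3, cpr-4, cpr-5, cpr-6 and cpr-8) were followed in first-stage (L1) larvae of 3 genotypes. The array carried 8 probe sets whose single platform gene symbol is one of these 7 genes, of 22548 probe sets tested. cpr-3 had 2 of them and each other gene had 1. The set was chosen by the measured cpr-4 signal, which was higher in both mutants than in wild type. The differences of the members from wild type are therefore given as a description. How many of them passed the threshold of the array-wide fit is stated as a count, also under other settings, and nothing is read from it. The p-values of members are given for the comparison of the mutants with each other.

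Cathepsin B-like enzymes belong to the papain family of cysteine proteases, which are made as inactive precursors and mature by removal of a propeptide. They work in lysosomes or outside the cell, and in nematodes several of them are gut enzymes that digest food protein. The enzymes OGT-1 and OGA-1 act on another level: OGT-1 puts single O-GlcNAc sugars on proteins inside the cell and OGA-1 takes them off.

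The groups were wild type, ogt-1(ok430) and oga-1(ok1207), each with 3 arrays labelled as biological replicates. ok430 and ok1207 are loss-of-function alleles per the labels, and each mutant group carries 1 allele only. Eggs from bleached adults hatched in buffer without food, larvae were collected 48 h later, and all groups were then fed Escherichia coli OP50 for 3 h before RNA was taken from whole animals. The strain background of the wild type, its relation to the mutants and whether the replicates were grown on separate days are not stated in the labels, so the p-values measure the spread between these arrays. In whole larvae, fewer cells of a type and less RNA per cell cannot be told apart.

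The deposited values are log2 signals already brought to 1 scale, with array medians from 7.42 to 7.47. The number of arrays limits the precision, and no detection calls were used, so levels of dim probe sets have no stated floor. In oga-1 mutants, the 3 probe sets of oga-1 itself differed from wild type by -0.75, -0.58 and -0.30, and the first of these was called (limma adjusted p = 0.0181). The ogt-1 signal was higher in ogt-1 mutants than in wild type at both ogt-1 probe sets (0.48 and 0.70), and the second was called (limma adjusted p = 0.0141). The position of these probes against the deletions is not stated in the labels, so the rise of ogt-1 signal is no check of that genotype, and directions rest on the labels. Markers of intestine (11 of 11), body wall muscle (3 of 3) and neurons (3 of 3) had mean signals above 7.45, the median over probe sets of the mean signal, while the epidermal collagen genes dpy-7, dpy-8 and rol-6 (0 of 3) did not. Of 13 markers of gravid adults and eggs 3 were above that median. Their mean signal ran from 6.81 to 6.88 in wild type, 6.72 to 6.91 in ogt-1 mutants and 6.87 to 6.98 in oga-1 mutants. The first principal component (32.2% of the variance) set the ogt-1 mutant arrays apart, and the second spread from wild type 1 to oga-1 mutant 3 (19.7%).

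cpr-4 had the largest difference of the family in both mutants, and it was in the same direction in both. CPR-4 is a secreted cathepsin B-like protease that has been described in C. elegans as a signal released by irradiated animals. At its probe set (gene F44C4.3, unmarked for cross-hybridisation) the log2 signal was 8.70, 8.16 and 7.96 on wild type 1 to 3. It was 12.75, 12.75 and 12.97 on ogt-1 mutant 1 to 3, and 13.21, 12.85 and 13.12 on oga-1 mutant 1 to 3. Every mutant array was over 4 log2 units above the highest wild-type array, and the arrays of the 2 mutants overlapped. The spread within wild type (SD 0.39, n = 3) was the widest of the 3 groups, against 0.13 in ogt-1 mutants and 0.18 in oga-1 mutants.

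The cpr-4 difference from wild type was 4.55 ± 0.18 (SE, n = 3) in ogt-1 mutants, which is 23.5-fold, and 4.79 ± 0.18 in oga-1 mutants, which is 27.6-fold. Among all 22548 probe sets these were the highest difference in ogt-1 mutants (rank 1) and the next to highest in oga-1 mutants (rank 2). Both differences are measured against the same 3 wild-type arrays. The gene was chosen for a rise in both mutants, so their difference from each other is not independent of that choice. Between the mutants cpr-4 differed by -0.23 ± 0.18 (ogt-1 mutant minus oga-1 mutant, limma adjusted p = 0.486). The 95% interval of that difference ran from -0.63 to 0.16. A difference between the mutants was therefore not detected for cpr-4, and the interval allows one of up to 0.63 log2 units toward oga-1 mutants.

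**Figure D1:**
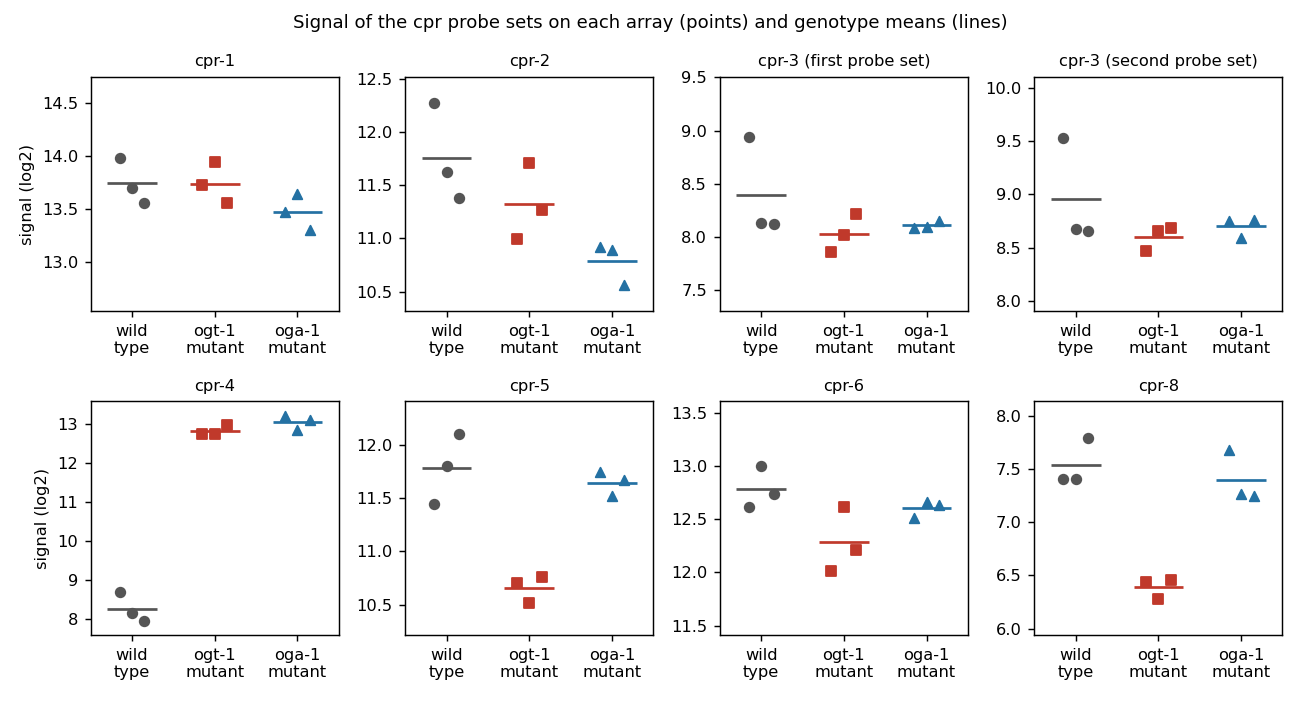
Log2 signal (vertical axis) of the 8 cpr probe sets on each of the 9 arrays (points, 3 per genotype) with genotype means (horizontal lines). The vertical axis spans 2.2 log2 units in each panel except that of cpr-4, where it spans 6. The cpr-4 signal is near 8 in wild type and near 13 in both mutants, whereas cpr-5 and cpr-8 are low on the 3 ogt-1 mutant arrays only.

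The other members were not higher in either mutant. Their 7 probe sets were lower in ogt-1 mutants than in wild type, by 0.00 (cpr-1) to 1.15 (cpr-8), and lower in oga-1 mutants, by 0.14 (cpr-5 and cpr-8) to 0.97 (cpr-2). Over all probe sets 49.3% were lower in ogt-1 mutants and 46.5% in oga-1 mutants. Since 2 of the 7 measure cpr-3 and all share the same 3 wild-type arrays, nothing is read from that count. For some members the sign changed with the arrays or the setting used. For cpr-1 in ogt-1 mutants the value was 0.12 if wild type 1 was left out, and 0.006 or 0.089 if array 1 or 3 of that mutant was. It was also above 0 with array medians set equal (0.006) and with the control gap between 3-prime and 5-prime signal, a measure of RNA integrity, as a covariate (0.125). In oga-1 mutants the second probe set of cpr-3 moved from -0.25 to 0.04 without wild type 1, and cpr-5 was 0.02 without wild type 3. With wild type 1, ogt-1 mutant 1 and oga-1 mutant 3 all left out, the second probe set of cpr-3 was 0.006 in both mutants. The median difference over the 8 probe sets was -0.40 in ogt-1 mutants and -0.22 in oga-1 mutants, beside 0.00 and 0.01 over all probe sets. Since these comparisons entered the choice of the genes, nothing is read from the counts that passed an adjusted p of 0.05 in the array-wide fit. They were 3 of 8 in ogt-1 mutants (cpr-4, cpr-5 and cpr-8, and with the replicate number as a block also cpr-6), where 2.59% of all probe sets were called. In oga-1 mutants the count was 1 of 8 (cpr-4), where 0.497% of all probe sets were called.

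cpr-5 and cpr-8 were low in ogt-1 mutants and near the wild-type level in oga-1 mutants. Both encode cathepsin B-like proteases and are immediate neighbours in the gene order of the RefSeq annotation (WBcel235 assembly). The cpr-5 signal (gene W07B8.5, marked for possible cross-hybridisation with related sequences) was 11.45, 11.80 and 12.11 in wild type, 10.70, 10.51 and 10.75 in ogt-1 mutants, and 11.74, 11.52 and 11.67 in oga-1 mutants. All 3 ogt-1 mutant arrays were below all 6 others, while the wild-type and oga-1 mutant arrays overlapped. The cpr-8 signal (gene W07B8.1, unmarked) was 7.41, 7.41 and 7.80 in wild type, 6.44, 6.28 and 6.45 in ogt-1 mutants, and 7.68, 7.27 and 7.25 in oga-1 mutants. Again the ogt-1 mutant arrays lay below all others and the other groups overlapped. Its level was dim, below the median of all probe set means in the average over arrays, so a difference at this probe set may be understated.

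The mutants were then compared directly, over 8 member probe sets, with p-values adjusted over all 22548. cpr-5 was lower in ogt-1 mutants than in oga-1 mutants by 0.99 on the log2 scale (-0.99 ± 0.15 SE, n = 3, 95% interval -1.33 to -0.65, limma adjusted p = 0.0121). cpr-8 was lower by a like amount (-1.01 ± 0.14, 95% interval -1.33 to -0.69, limma adjusted p = 0.00808). These were the only members called, 2 of 8, where 2.89% of all probe sets were called. The groups did not overlap for 3 of 8 (cpr-2, cpr-5 and cpr-8), beside 22.9% of all probe sets. The signed differences from wild type were -1.13 ± 0.15 and -1.15 ± 0.14 in ogt-1 mutants for cpr-5 and cpr-8, and -0.14 ± 0.15 and -0.14 ± 0.14 in oga-1 mutants.

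The calls of both genes between the mutants held without each of the 9 arrays in turn, with adjusted p from 0.00301 to 0.046 for cpr-5 and from 0.00763 to 0.0326 for cpr-8. They were lost with the mean gap between 3-prime and 5-prime signal of the actin, GAPDH and ubiquitin control probe sets, a measure of RNA integrity, as a covariate. The differences were then -1.24 (adjusted p = 0.361) and -1.25 (adjusted p = 0.279), and 9 of all probe sets were called. That gap ran from 1.31 to 1.51 in ogt-1 mutants and from 1.16 to 1.28 in oga-1 mutants, so the groups did not overlap in it (exact permutation p = 0.1, two-sided, the smallest possible). The call of cpr-8 was lost without wild type 1, ogt-1 mutant 1 and oga-1 mutant 3 (-1.11, adjusted p = 0.0537).

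**Figure D2:**
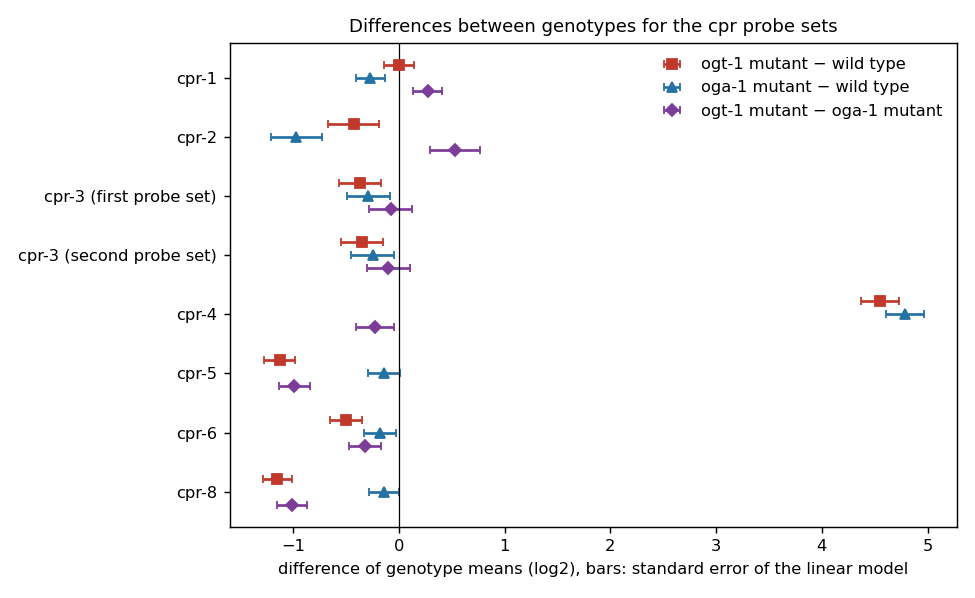
Difference of genotype means on the log2 scale (horizontal axis) for each cpr probe set, with the standard error of the linear model as bars. Squares are ogt-1 mutant minus wild type, triangles oga-1 mutant minus wild type and diamonds ogt-1 mutant minus oga-1 mutant. cpr-4 is at 4.55 and 4.79 from wild type, and cpr-5 and cpr-8 are the members with differences near -1 between the mutants.

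The flanking genes were read next, a step chosen after the values of cpr-5 and cpr-8 were seen. The 3 nearest protein-coding genes on each side with a probe set (Y50D4B.2, Y50D4B.1 and W07B8.4 before cpr-5, and cutl-22, cmd-1 and T21H3.5 after cpr-8) had differences from -0.12 to 0.00 between ogt-1 mutants and wild type and from -0.23 to 0.01 between the mutants. None of these 6 was called in any of the 3 comparisons. W07B8.4, next to cpr-5, had signals of 6.53 in wild type, 6.41 in ogt-1 mutants and 6.54 in oga-1 mutants, all below the median of all probe set means. It is also among the other candidates of the papain family read below as a list, so both readings share this gene. cmd-1, which encodes calmodulin, was bright and had means of 13.13, 13.06 and 13.05.

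The genes around cpr-4 did not share its difference either. The nearest 3 on each side (ZK1055.6, ZK1055.7 and gon-14, and nhr-37, ppt-1 and scd-2) ranged from -0.42 to 0.30 in ogt-1 mutants and from -0.28 to 0.21 in oga-1 mutants against wild type, and none of them was called there. The exception between the mutants was ppt-1, which encodes palmitoyl-protein thioesterase, a lysosomal enzyme that removes fatty acids from proteins. It was lower in ogt-1 mutants than in oga-1 mutants (-0.62 ± 0.12, limma adjusted p = 0.0262), with 7.18, 7.33 and 7.24 against 7.61, 7.90 and 8.11. Leaving out ogt-1 array 1 or 3, or oga-1 array 2 or 3, ended its call (adjusted p = 0.0604 to 0.0874).

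**Figure D3:**
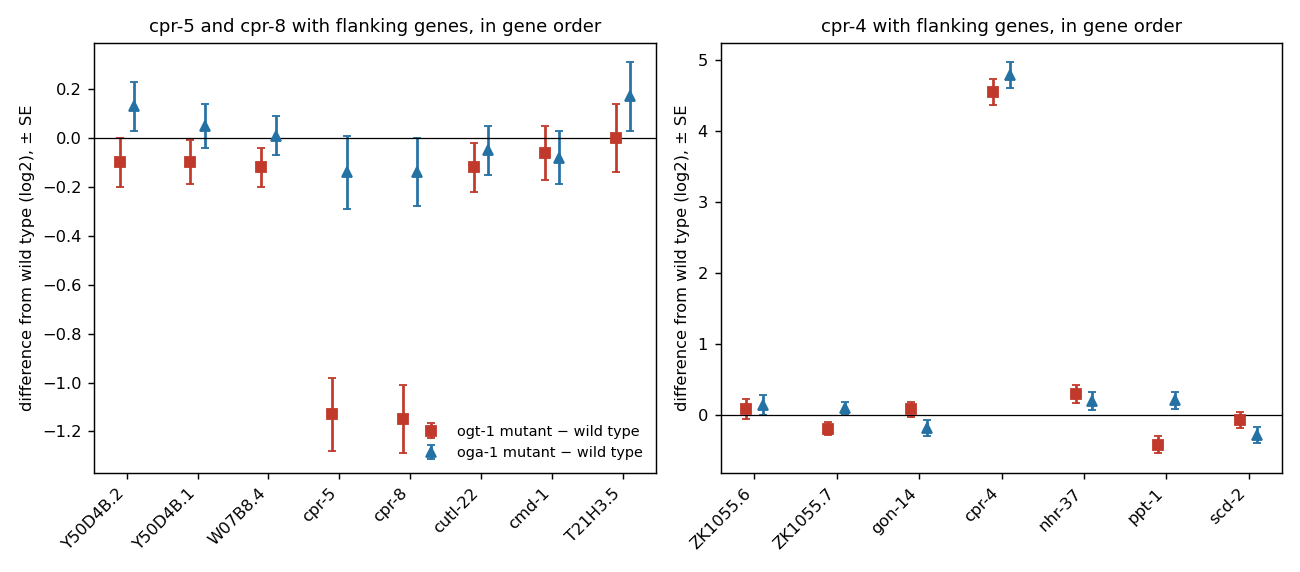
Difference from wild type on the log2 scale (vertical axis, with different ranges in the 2 panels) for cpr-5 and cpr-8 (left) and cpr-4 (right) with 3 flanking genes on each side, evenly spaced in gene order. Squares are the ogt-1 mutant, triangles the oga-1 mutant, and bars the standard error. The flanking genes lie between -0.42 and 0.30 while cpr-4, and in ogt-1 mutants cpr-5 and cpr-8, lie apart from them.

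Of the remaining members, cpr-2 had the second largest difference of the family in oga-1 mutants. cpr-2 (gene F36D3.9) was lowest in oga-1 mutants, with 10.92, 10.89 and 10.56, against 12.28, 11.62 and 11.38 in wild type and 10.996, 11.71 and 11.27 in ogt-1 mutants. The oga-1 mutant arrays lay below all others, and wild type and the ogt-1 mutant overlapped. The difference from wild type was -0.97 ± 0.24 in oga-1 mutants and -0.43 ± 0.24 in ogt-1 mutants, and -0.71 and -0.18 without wild type 1. Among all 22548 probe sets the oga-1 mutant difference was the 8th lowest. Between the mutants it was 0.53 ± 0.24 (95% interval 0.00 to 1.06, limma adjusted p = 0.242), which did not pass the threshold. The spread of cpr-2 within genotypes (SD 0.358) was wider than that of 96.9% of all probe sets, whose median was 0.139.

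cpr-6 (gene C25B8.3) was among the bright members, with 12.62, 13.001 and 12.74 in wild type, 12.01, 12.62 and 12.21 in ogt-1 mutants and 12.51, 12.66 and 12.64 in oga-1 mutants. ogt-1 mutant 2 reached the lowest wild-type array, so the groups met. Its difference from wild type was -0.50 ± 0.15 in ogt-1 mutants and -0.18 ± 0.15 in oga-1 mutants. Between the mutants it was -0.32 ± 0.15 (95% interval -0.66 to 0.02, limma adjusted p = 0.271).

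cpr-1 (gene C52E4.1), first described as a gut-specific cysteine protease, had the highest signal and little difference. It measured 13.98, 13.70 and 13.56 in wild type, 13.72, 13.94 and 13.56 in ogt-1 mutants and 13.48, 13.65 and 13.31 in oga-1 mutants. All groups overlapped, and the differences from wild type were 0.00 ± 0.14 and -0.27 ± 0.14. Between the mutants the difference was 0.27 ± 0.14 (95% interval -0.05 to 0.58, limma adjusted p = 0.315).

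cpr-3 (gene T10H4.12) was measured by a pair of probe sets, both marked for possible cross-hybridisation (suffix _x_at), which share their gene and are not replicates. At the first, the dimmer one, the signal was 8.94, 8.13 and 8.12 in wild type, 7.86, 8.01 and 8.22 in ogt-1 mutants and 8.09, 8.09 and 8.15 in oga-1 mutants. Wild type 1 stood above the other 8 arrays, which overlapped. The second had the same shape, with 9.53 on wild type 1 and 8.47 to 8.76 on the others. The first probe set differed from wild type by -0.37 in ogt-1 mutants and -0.29 in oga-1 mutants, and by -0.10 and -0.02 without wild type 1. Between the mutants the probe sets gave -0.08 ± 0.20 (limma adjusted p = 0.852) and -0.10 ± 0.20 (adjusted p = 0.827). Wild type 1 was also the highest wild-type array for cpr-1, cpr-2 and cpr-4, and the lowest for cpr-5, cpr-6 and, by less than 0.01, cpr-8.

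Similarity of the members over the 9 arrays was described by the root mean square difference between profiles centred to mean 0 and scaled to SD 1, where 0 means the same shape. The closest pair was the 2 probe sets of cpr-3 (0.203), followed by cpr-5 and cpr-8 (0.218) and by cpr-1 and cpr-2 (0.532). Outside the family, 259 single-symbol probe sets with an SD over arrays of at least 0.5 and a mean at or above the median could be compared. The 5 genes most like cpr-4 were pcdr-1 (0.23), F38B6.6 (0.248), nhr-158 (0.282), the G protein alpha subunit gene gpa-18 (0.285) and nssp-55 (0.337). Their differences from wild type ran from 0.95 (F38B6.6) to 1.40 (nssp-55) in ogt-1 mutants, beside 4.55 for cpr-4. In oga-1 mutants they ran from 1.01 (pcdr-1) to 2.05 (nssp-55), beside 4.79 for cpr-4. These 5 genes were picked for a shape like that of cpr-4, so the shared shape follows from the choice. The 5 most like cpr-5 were the flavin-containing monooxygenase gene fmo-1 (0.362), ZK973.8 (0.409), DH11.2 (0.416), hmg-20 (0.418) and the Piwi-class Argonaute gene prg-1 (0.433). These points share the arrays and fall into 3 genotypes, so the likeness mostly follows the genotype means.

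**Figure D4:**
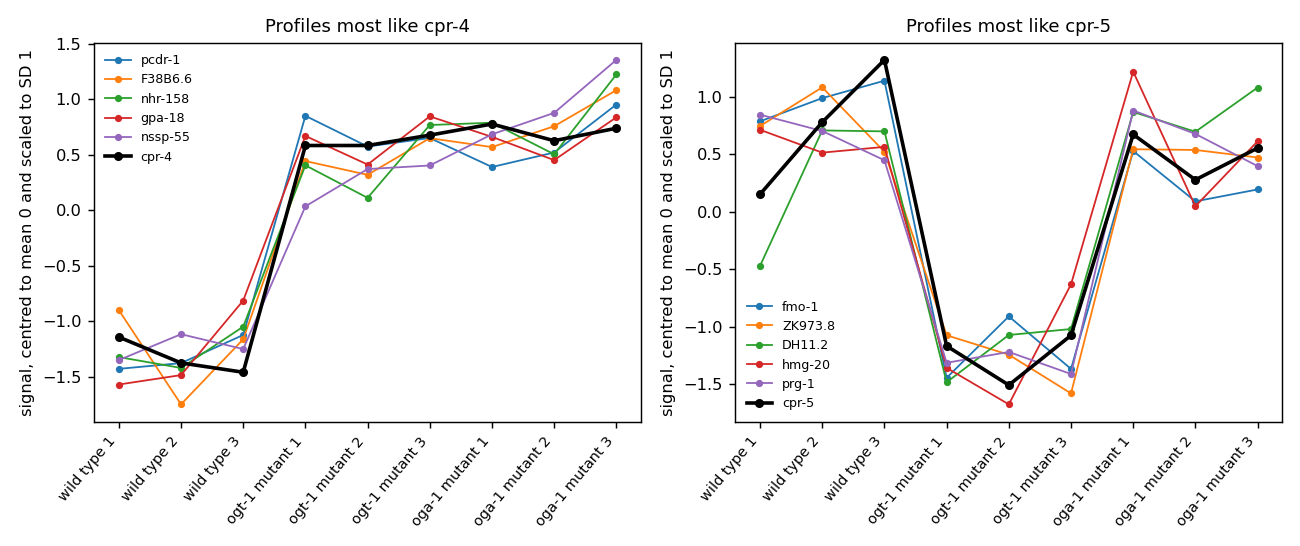
Signals of cpr-4 (left) and cpr-5 (right), as thick black lines, and of the 5 genes with the most similar profile over the 9 arrays, each centred to mean 0 and scaled to SD 1 (vertical axis). The profiles like cpr-4 step up between wild type and both mutants, and those like cpr-5 are low on the 3 ogt-1 mutant arrays.

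Related genes were read as lists, with 1 probe set per gene and calls adjusted over all probe sets. Of 15 other candidates of the papain family, including the cathepsin L gene cpl-1, the cathepsin Z-like genes cpz-1 and cpz-2 and the further paralog cpr-9, 0 were called in any of the 3 comparisons by limma. At an unadjusted p under 0.05 they numbered 1, 3 and 2 for ogt-1 mutant against wild type, oga-1 mutant against wild type and ogt-1 mutant against oga-1 mutant, where 15.8%, 11.5% and 20.5% of all probe sets passed. The counts at an unadjusted p that follow are to be read against these shares. Calls at the adjusted threshold are to be read against 2.59%, 0.497% and 2.89% of all probe sets called. At such shares 0 calls among 15 genes says little. The list median was -0.01 in ogt-1 mutants and 0.01 in oga-1 mutants, with a range from -0.26 to 0.25 and from -0.31 to 0.33. cpr-9 had means of 13.75, 13.82 and 13.68 in wild type, the ogt-1 mutant and the oga-1 mutant. cpl-1, whose product acts in yolk processing and development, had means of 13.46, 13.40 and 13.43. The cystatin genes cpi-1 and cpi-2, which encode inhibitors of such proteases, differed from wild type by 0.06 and 0.14 in ogt-1 mutants and by 0.27 and 0.03 in oga-1 mutants, and neither was called.

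Of 15 aspartic proteases, which are the other main class of acid proteases in the nematode gut, 0 were called against wild type in either mutant (5 and 3 at an unadjusted p under 0.05). Between the mutants 1 was called and 14 were not, and 4 of the 15 had an unadjusted p under 0.05. That gene, asp-7, was higher in ogt-1 mutants than in oga-1 mutants (0.96 ± 0.18, limma adjusted p = 0.0275), with 9.17, 9.63 and 9.84 against 8.72, 8.75 and 8.27 and with 9.06, 9.40 and 9.27 in wild type. Leaving out ogt-1 array 2 or 3, or oga-1 array 2 or 3, ended its call (adjusted p = 0.0539 to 0.089). Of 27 lysosomal hydrolases 0 were called against wild type (8 and 4 at an unadjusted p under 0.05) and ppt-1 between the mutants (10 at an unadjusted p under 0.05). With the replicate number as a block gana-1, an alpha-galactosidase gene, was also called, both against wild type in ogt-1 mutants (-0.67 ± 0.11, limma adjusted p = 0.0133, against 0.109 without the block) and between the mutants (-0.81 ± 0.11, limma adjusted p = 0.00696, against 0.0535). Their median was -0.08 in ogt-1 mutants, 0.14 in oga-1 mutants and -0.23 between the mutants. Of 27 genes of the lysosomal membrane and proton pump 0 were called in the 3 comparisons (5, 1 and 7 at an unadjusted p under 0.05), and with the block vha-7, a subunit gene of the proton pump, was called between the mutants (-0.58 ± 0.12, limma adjusted p = 0.0369, against 0.142).

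**Figure D5:**
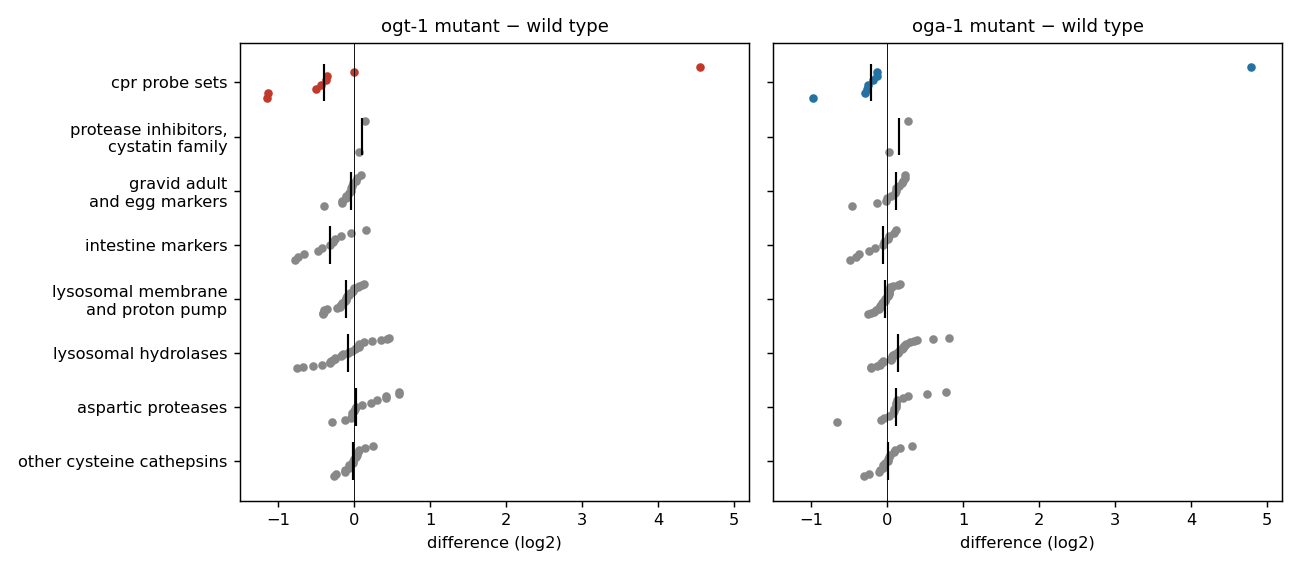
Difference from wild type on the log2 scale (horizontal axis) for each gene of the related lists (grey points) and each cpr probe set (coloured points), in ogt-1 mutants (left) and the oga-1 mutant (right), with list medians as vertical bars. cpr-4, at 4.55 and 4.79, stands apart from every gene of the lists, whose differences run from -0.77 to 0.81.

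Intestinal markers were examined beside these results, since several cathepsin genes are expressed in the gut. Of 11 markers 2 fell in ogt-1 mutants, the proton exchanger gene nhx-2 (-0.74 ± 0.16, limma adjusted p = 0.0444) and the GATA transcription factor gene elt-7 (-0.77 ± 0.17, limma adjusted p = 0.0481), and 9 were not called. In oga-1 mutants 0 were called, and between the mutants the metallothionein gene mtl-2 was called (0.57 ± 0.12, limma adjusted p = 0.0418, marked). At an unadjusted p under 0.05 the markers numbered 4 in ogt-1 mutants, 2 in oga-1 mutants and 5 between the mutants. The shares over all probe sets were 15.8%, 11.5% and 20.5%. At an adjusted p under 0.05 the shares over all probe sets were 2.59%, 0.497% and 2.89%. The block added the GATA factor gene elt-2 in ogt-1 mutants against wild type (-0.66 ± 0.15, limma adjusted p = 0.041, against 0.0535), and elt-7 (-0.53, adjusted p = 0.0334, against 0.126) and nhx-2 (-0.67, adjusted p = 0.0321, against 0.0547) between the mutants. All but oga-1 arrays 1 and 3 were needed for the call of nhx-2 (adjusted p = 0.0577 to 0.151 without 1 of the others). All but wild type 1 and ogt-1 array 2 were needed for that of elt-7 (0.072 to 0.177), and all but wild-type arrays 1 and 3 and oga-1 array 1 for that of mtl-2 (0.0695 to 0.118).

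The list median of the intestinal markers was -0.32 in ogt-1 mutants and -0.06 in oga-1 mutants. Their mean signal ran from 10.63 to 10.92 in wild type, from 10.29 to 10.57 in ogt-1 mutants and from 10.38 to 10.86 in oga-1 mutants. The ogt-1 mutant did not overlap with wild type (difference -0.36, exact permutation p = 0.1, two-sided, the smallest possible) and overlapped with oga-1 mutants (-0.22, exact permutation p = 0.3). The differences of cpr-5 and cpr-8 in ogt-1 mutants were larger in size, and whether the intestinal signal has a part in them was not tested. Mean marker signals of epidermis and body wall muscle did not overlap between the mutants. With 3 arrays against 3 the permutation p cannot fall below 0.1, so no difference was established there. The mean of the 3 epidermal markers was 6.46 to 6.64 in ogt-1 mutants, 6.85 to 7.30 in oga-1 mutants and 6.55 to 6.68 in wild type, so oga-1 mutants lay above both other groups (0.41 above wild type, and -0.45 between the mutants, exact permutation p = 0.1 each). All 3 of these markers were dim. The mean of the 3 body wall muscle markers was 12.46 to 12.53 in ogt-1 mutants, 12.54 to 12.73 in oga-1 mutants and 12.19 to 12.54 in wild type (-0.13 between the mutants and 0.28 between oga-1 mutants and wild type, exact permutation p = 0.1 each). That of the 3 neuronal markers overlapped in all groups. The part of these tissue signals in the differences of the cpr genes was not tested. None of the 11 markers was at a level below the median of all probe set means.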

How the data were processed

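The table deposited by the authors holds log2 signals, 1 value per probe set and array, for 9 arrays. MAS5, RMA and Partek appear in the submitters' processing notes, with no version or role. The log base was inferred from values between 3.74 and 14.90. Of 22625 probe sets 77 controls were left out of the tests. The platform annotation gave 1 symbol to 20766 tested probe sets, several to 887 and none to 895, and 20701 of the first matched the RefSeq gene table (WBcel235), including all 8 members. Suffixes such as _s_at or _x_at mark possible cross-hybridisation.

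Genotypes were compared by lmFit and eBayes of limma 3.58.1 under R 4.3.3 (all 9 arrays, 1 coefficient per genotype, 6 residual and 3.92 prior degrees of freedom) and Benjamini-Hochberg adjustment over 22548 probe sets. Calls were made at adjusted p under 0.05. No filter was applied. In simulated data for ogt-1 mutant against wild type (22548 probe sets) the fit recovered 42% of changes of 0.5, 78% of changes of 1 and 100% of changes of 2 or 4 log2 units, with 4 false calls. The simulated noise was drawn independently for each probe set and array, with no effect of replicate number or control gap. The recovery and the count of false calls may therefore not carry over to the measured arrays. Single values per array were compared by an exact permutation test (scipy 1.17.1) of 3 arrays against 3.

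Deviations from group means of arrays with the same replicate number correlated at 0.192, 0.1004 and 0.303 for ogt-1 mutant and wild type, 0.12, 0.0052 and 0.214 for oga-1 mutant and wild type, and 0.106, 0.2 and 0.322 for the mutants. The numbers may therefore mark paired arrays, but the labels do not say so, and these correlations alone do not settle it. The fit behind the reported values has no block, and the fit with the number as a block is an alternative, given beside the results whose call it changes.

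The members and lists were chosen with earlier results of these data known. Named were all members, ogt-1 and oga-1, up to 3 called genes per list and comparison with the smallest p (all genes of lists of 3 or fewer), and 5 genes each most like cpr-4 and cpr-5. Other list genes and the flanking genes were added after their values were seen.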

Additional observations from a re-analysis of the deposited data

Results flagged for a closer look

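The changes of cpr-5 and cpr-8 differed between the mutants. The difference of ogt-1 mutant minus oga-1 mutant was -0.99 ± 0.15 (SE) for cpr-5 and -1.01 ± 0.14 for cpr-8 (limma adjusted p = 0.0121 and 0.00808), with 3 of 3 ogt-1 mutant arrays below every oga-1 mutant array at both genes. Both comparisons with wild type use the same 3 wild-type arrays.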

How the results depend on the processing

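The calls were recomputed under 8 alternatives and without each of the 9 arrays in turn. The cpr-4 difference from wild type ran from 4.398 to 4.77 in the ogt-1 mutant and from 4.63 to 5.003 in the oga-1 mutant without 1 array, and from 4.55 to 4.81 and from 4.73 to 4.97 under the other alternatives. Between the mutants it ran from -0.34 to -0.16 without 1 array and was not called in any setting. The count of called members for ogt-1 mutant against wild type was 2 with the control gap as a covariate (cpr-5, at -1.288, no longer passed) and 2 with only brighter probe sets, since cpr-8 was then not tested. Without 1 array it was 3 to 4 (cpr-6 added without ogt-1 mutant 2). Without 1 array the count was 1 for oga-1 mutant against wild type and 2 between the mutants. Between the mutants it was 1 with only probe sets at or above the median mean, since cpr-8 was then not tested, 0 with the control gap as a covariate and 1 without wild type 1, ogt-1 mutant 1 and oga-1 mutant 3. With the control gap both genes kept their direction (-1.24, adjusted p = 0.361, and -1.25, adjusted p = 0.279), and the cause was not tested.

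Of the 110 genes of the related lists 2 were called for ogt-1 mutant against wild type, 0 for oga-1 mutant against wild type in every setting, and 3 between the mutants. The shares called over all probe sets were 2.59%, 0.497% and 2.89%, against which these list counts are to be read. The first count was 4 with the replicate block (gana-1 and elt-2 added), 1 with only the 6 arrays of the compared genotypes, 0 with the control gap, 0 without the 3 named arrays, and 0 to 3 without 1 array. The last was 7 with the replicate block (gana-1, vha-7, elt-7 and nhx-2 added), 5 with quantile normalization, 5 with only brighter probe sets, 1 with the 6 arrays, 0 with the control gap, and 0 to 5 without 1 array. With the replicate block the cpr-4 differences were 4.55, 4.79 and -0.23, the member counts 4, 1 and 2, and all probe sets called 1034, 163 and 1128, against 584, 112 and 652 without it. All 9 arrays correlated best with their own number in the other genotypes, which is a hint from the data. All probe sets called were 49, 25 and 9 with the control gap and 262, 9 and 188 without the 3 named arrays. With only the 6 arrays they were 270 for ogt-1 mutant against wild type and 336 between the mutants. Between the mutants they were 683 with quantile normalization and 509 of 11274 with only brighter probe sets. Without 1 array they ran from 138 to 533 for ogt-1 mutant against wild type and from 255 to 803 between the mutants.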
